A study of Mus musculus with 9 samples.

Results

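The synaptic vesicle fusion machinery was followed in whole-brain RNA through 8 genes, Snap25, Stx1a, Vamp1, Vamp2, Syt1, Cplx1, Cplx2 and Syn1, which were taken by gene name from the deposited count and FPKM tables (8 of 53465 listed genes). All 8 were among the 18501 genes with enough reads to be tested. The 9 libraries came from 9 male C57BL/6 mice aged 7 weeks at the start, with 3 mice in each group. Control (CON) mice received saline. Mice of the diabetic neuropathic pain (DNP) group ate a 60% fat diet for 4 weeks, were injected intraperitoneally with streptozotocin (STZ, a toxin of insulin-producing beta cells) at 50 mg/kg daily for 7 days, were tested for pain 4 weeks later and then received saline. Baclofen (BAC) mice had the same diet and STZ and then 7 daily intraperitoneal injections of 8 mg/kg baclofen, a drug that activates GABA-B receptors. Only mice with sustained high blood glucose and pain thresholds below those of controls entered the DNP and BAC groups. Daily fasting around the STZ injections is described for the diet and STZ mice alone. DNP against CON therefore compares diet and STZ together, in mice selected in this way, with neither. BAC against DNP compares baclofen with saline in diabetic mice. BAC and CON differ in all 3 treatments and in the selection.

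Neurotransmitter leaves a nerve terminal when a synaptic vesicle fuses with the plasma membrane. The vesicle protein synaptobrevin (Vamp1 or Vamp2) zips together with syntaxin-1 (Stx1a) and SNAP-25 (Snap25) of the plasma membrane into a SNARE complex that pulls the membranes together. Complexins (Cplx1, Cplx2) bind and clamp the assembled complex, synaptotagmin-1 (Syt1) is the calcium sensor that triggers fast fusion, and synapsin I (Syn1) tethers vesicles in the reserve pool. Several of these proteins come as paralog pairs that neurons of different brain regions use in different proportions.

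By edgeR none of the 8 genes passed in any of the 3 comparisons, and 0% of all tested genes did; DESeq2 called 342, 7 and 100 genes of the table, with none of the 8 among them. The members differed in their spread over the 9 libraries. Vamp1 spanned 12.7-fold and Stx1a 21.5-fold, while Snap25 spanned 1.57-fold. Vamp1 and Cplx1 were highest, and Vamp2, Cplx2 and Syt1 lowest, in the same 3 libraries (DNP 1, BAC 1 and BAC 3), which were also the libraries with marker genes of brainstem and spinal cord. In a bulk sample, fewer cells of a type and less RNA per cell cannot be told apart.

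The 2 paralog pairs on which the results turn, Vamp1 with Vamp2 and Cplx1 with Cplx2, are given first by 120 bases of coding sequence each, because reads must separate them for the levels to be read apart. Capitals mark the longest runs of bases that both genes of a pair share anywhere in their transcripts (2 runs of equal length for the synaptobrevins, 1 run for the complexins), and all 4 stretches cross from exon 2 into exon 3 of the GENCODE transcript (GRCm38, 5′ to 3′ of the coding strand, introns left out).
Vamp1: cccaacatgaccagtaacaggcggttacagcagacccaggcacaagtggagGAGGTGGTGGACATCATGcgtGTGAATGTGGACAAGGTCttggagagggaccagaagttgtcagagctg
Vamp2: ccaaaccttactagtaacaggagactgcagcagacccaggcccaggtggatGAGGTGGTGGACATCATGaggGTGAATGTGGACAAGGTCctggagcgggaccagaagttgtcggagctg
Cplx1: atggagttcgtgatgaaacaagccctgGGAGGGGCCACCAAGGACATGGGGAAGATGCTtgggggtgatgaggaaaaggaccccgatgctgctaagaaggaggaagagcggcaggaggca
Cplx2: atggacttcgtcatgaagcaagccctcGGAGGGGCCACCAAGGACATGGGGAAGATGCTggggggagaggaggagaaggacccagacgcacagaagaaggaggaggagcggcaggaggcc
The Vamp1 stretch covers bases 76 to 195 of the coding sequence and the Vamp2 stretch bases 70 to 189, while the complexin stretches start at base 1. With the intron between the exons they span chr6:125218647-125218976 (Vamp1, plus strand), chr11:69089173-69089796 (Vamp2, plus strand), chr5:108525479-108548536 (Cplx1, minus strand) and chr13:54378669-54378900 (Cplx2, plus strand). Over the whole coding sequence Vamp1 and Vamp2 were identical at 75.0% of aligned positions with 2 longest shared runs of 18 bases each, and Cplx1 and Cplx2 at 79.6% with a longest run of 32 bases. For the further pairs the values were 72.9% and 26 bases (Syt1 and Syt2) and 59.9% and 26 bases (Syn1 and Syn2). Only short stretches were thus common to a pair, although how reads mapping to several genes were counted is not given in the sources used here.

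Total counts ranged from 13107382 to 16008129 per library, and the mitochondrial share from 4.34% to 5.36% in CON, 6.68% to 7.01% in DNP and 5.94% to 7.23% in BAC. Libraries of 1 group differed by more than counting noise, and the libraries stood apart in regional markers although all are labelled whole brain. The 14 brainstem and spinal cord markers (hindbrain Hox genes, Glra1 and Slc6a5 among them) summed to 72.9 FPKM in DNP 1, 113 in BAC 1 and 110.1 in BAC 3, where none was at 0, against 0.0715 to 3.85 FPKM in the other 6 libraries, where 8 to 12 of the 14 were at 0. The 14 cerebellar markers summed to 1598 FPKM in CON 2 and 837 in BAC 1 against 51.8 to 312 elsewhere. Cortical and hippocampal markers, 10 genes, summed to 145 to 159 FPKM in DNP 1 and CON 2, 79.8 to 84.9 in BAC 1 and BAC 3, and 539 to 1012 in the other 5 libraries. By edgeR at an unadjusted p under 0.05, 3 cerebellar, 0 brainstem and 1 cortical marker differed in DNP against CON, 0 of each in BAC against DNP, and 0, 12 and 2 in BAC against CON, with none past the adjusted threshold. Of all tested genes 11.2%, 2.37% and 7.76% did so in these 3 comparisons. Each level is therefore given by library, and the comparisons also without DNP 1, BAC 1 and BAC 3.

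Levels are in FPKM, counts scaled by library total and by a length that the authors' processing took for each gene. That length was not given. Count and FPKM imply one above the GENCODE exonic length for Syt1 (8338 bases), Vamp1 (10167), Stx1a (2666) and Syn1 (3299), among others, and equal to it for Cplx2 (4928). A comparison between genes therefore depends on it, while a comparison of libraries within a gene does not. Group differences are log2 fold changes fitted by edgeR to the counts of all tested genes, with their standard error (SE) and 95% interval, and an adjusted p under 0.05 was taken as passing.

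**Figure D1:**
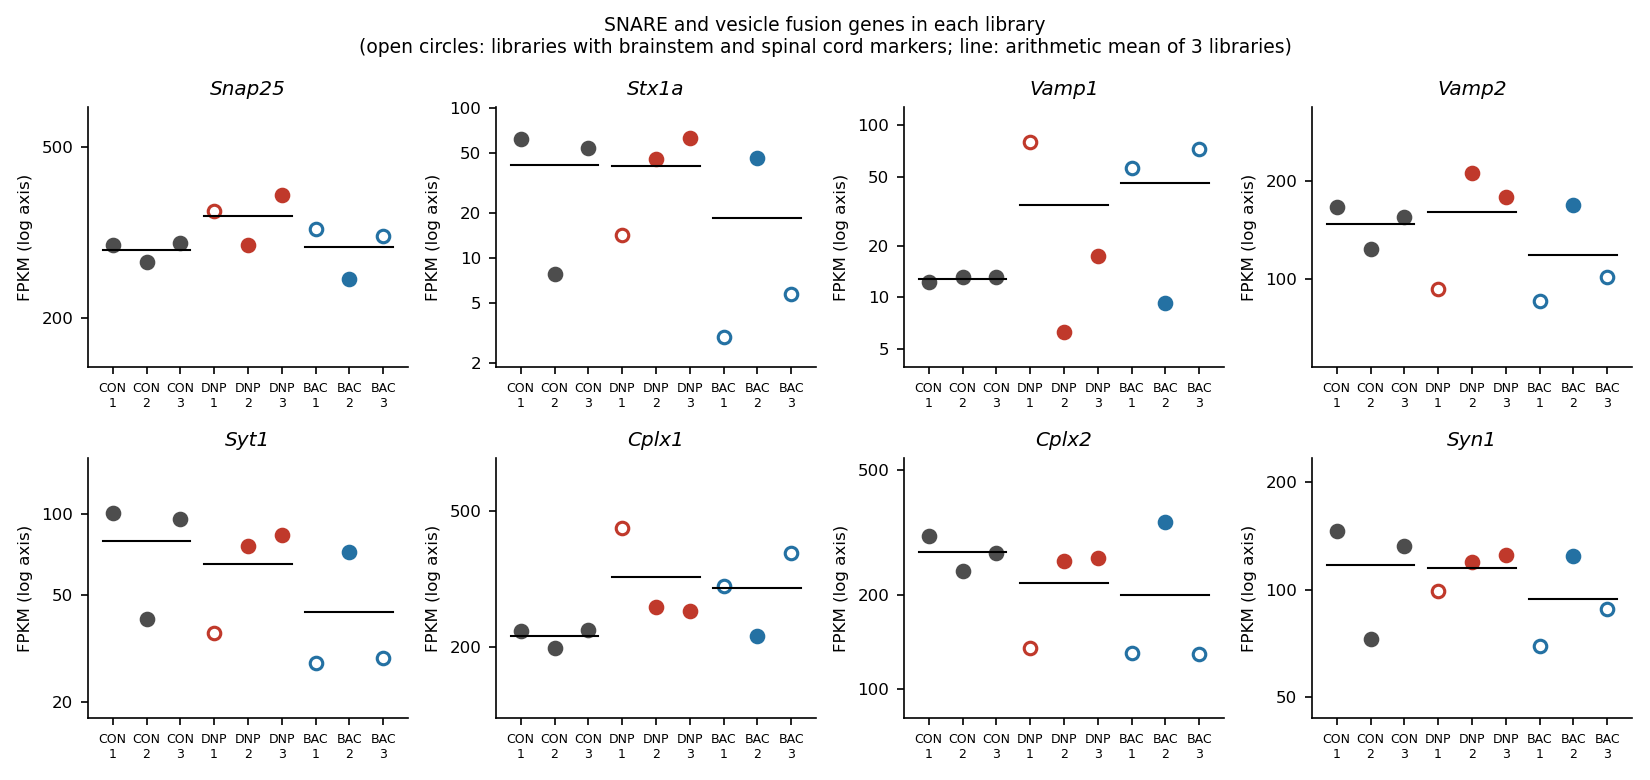
FPKM of each of the 8 genes on a log axis (vertical) in each of the 9 libraries (horizontal), with the arithmetic mean of each group of 3 as a line and open circles for DNP 1, BAC 1 and BAC 3. The 3 open circles sit together, at 56.4 to 79.9 FPKM for Vamp1 and at 129 to 136 FPKM for Cplx2, apart from the other 6 libraries, whereas those of Snap25 lie among the others.

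Snap25, on the plasma membrane the donor of 2 of the 4 SNARE helices, lies on chromosome 2 (GRCm38 chr2:136713453-136782428, plus strand). It was read at 295, 271 and 299 FPKM in CON 1 to 3, 355, 295 and 386 FPKM in DNP 1 to 3, and 322, 246 and 311 FPKM in BAC 1 to 3. The 3 groups overlapped, and the libraries with brainstem markers lay inside the range of the rest. DNP exceeded CON by a log2 fold change of 0.22 (SE 0.17, 95% interval -0.17 to 0.60; edgeR adjusted p = 0.669), and BAC differed from DNP by -0.26 (SE 0.17, interval -0.65 to 0.12; edgeR adjusted p = 0.998). Its intervals were the narrowest of the 8 genes. Snap25 kept both directions under all 19 alternative settings.

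Stx1a encodes syntaxin-1A, the plasma membrane SNARE partner of SNAP-25, and lies on chromosome 5 (GRCm38 chr5:135023482-135051100, plus strand). Its levels were 62.7, 7.81 and 54.3 FPKM in CON, 14.2, 45.8 and 63.9 FPKM in DNP, and 2.97, 46.6 and 5.71 FPKM in BAC. In every group at least 1 library was several-fold below the others, so that CON 2, DNP 1, BAC 1 and BAC 3 were low and the other 5 libraries high. Those 4 low libraries were the ones with cortical and hippocampal markers at 79.8 to 159 FPKM; the part of this in the result was not tested. The group differences were -0.08 for DNP against CON (SE 1.10, interval -2.59 to 2.43), -1.14 for BAC against DNP (SE 1.12) and -1.22 for BAC against CON (SE 1.12, interval -3.77 to 1.33), with edgeR adjusted p of 0.987, 0.998 and 0.811. Without DNP 1, BAC 1 and BAC 3 they were 0.32, -0.19 and 0.13 on the log2 scale. Without CON 2 as well, the low CON library, they were -0.17, -0.18 and -0.35. Both sets leave a single BAC library that is assumed to vary like the others. With the cerebellar and the brainstem marker score as covariates they were instead -1.63, -0.58 and -2.21. The last had an unadjusted edgeR p of 0.0164 and an adjusted p of 0.401. Both scores came from the same libraries, and no CON library had a positive brainstem score. Fits with these scores therefore cannot fully separate group from region. Without BAC 2, the only BAC library above 5.71 FPKM, BAC differed from DNP by -3.29 and from CON by -3.37 (edgeR unadjusted p of 0.0120 and 0.0109). The size of each difference therefore depended on which libraries entered and on the scores.

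Vamp1 encodes synaptobrevin-1, the vesicle SNARE known for its use in brainstem, spinal cord and neuromuscular synapses, and lies on chromosome 6 (GRCm38 chr6:125215551-125245964, plus strand). It was read at 12.2, 13.2 and 13.1 FPKM in CON, 79.9, 6.28 and 17.3 FPKM in DNP, and 56.4, 9.23 and 72.6 FPKM in BAC. The CON libraries agreed closely, and DNP 1, BAC 1 and BAC 3 stood at least several-fold above all other libraries. DNP was above CON by 1.39 (SE 0.92, interval -0.71 to 3.48; edgeR adjusted p = 0.600) and BAC above CON by 1.76 (SE 0.93, interval -0.36 to 3.87; edgeR adjusted p = 0.667), and BAC and DNP differed by 0.37 (SE 0.90). Without DNP 1 the first of these was -0.17, and without DNP 1, BAC 1 and BAC 3 the 3 differences were -0.18, -0.49 and -0.31 in the same order. Each positive difference of Vamp1 therefore rested on those libraries, whose brainstem and spinal cord markers were at 72.9 to 113 FPKM.

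Vamp2 encodes synaptobrevin-2, the main vesicle SNARE of the forebrain, and lies on chromosome 11 (GRCm38 chr11:69088490-69092384, plus strand). Its levels were 167, 124 and 155 FPKM in CON, 93.6, 212 and 179 FPKM in DNP, and 85.9, 169 and 101 FPKM in BAC. The order of the libraries was nearly the reverse of that of Vamp1, with DNP 1, BAC 1 and BAC 3 the 3 lowest. DNP and CON differed by 0.07 (SE 0.36; edgeR adjusted p = 0.963), BAC and DNP by -0.45 (SE 0.36; edgeR adjusted p = 0.998) and BAC and CON by -0.38 (SE 0.36; edgeR adjusted p = 0.823). Without DNP 1, BAC 1 and BAC 3 the last difference was 0.17.

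Syt1, the fast calcium sensor on the vesicle, lies on chromosome 10 (GRCm38 chr10:108497650-109010982, minus strand). It was read at 101, 41.0 and 95.7 FPKM in CON, 36.1, 76.3 and 84.0 FPKM in DNP, and 27.9, 72.5 and 29.3 FPKM in BAC. As with Stx1a, the 4 lowest libraries were CON 2, DNP 1, BAC 1 and BAC 3. The differences were -0.33 for DNP against CON (SE 0.52), -0.60 for BAC against DNP (SE 0.53) and -0.93 for BAC against CON (SE 0.53, interval -2.14 to 0.27), with edgeR adjusted p of 0.862, 0.998 and 0.675. Without DNP 1, BAC 1 and BAC 3 they were -0.05, -0.10 and -0.16, and without CON 2 as well -0.37, -0.09 and -0.46 (edgeR unadjusted p of 0.0197 for the first and 0.0194 for the last). With the regional scores as covariates they were -0.95, -0.07 and -1.02, with unadjusted p of 0.0187 for DNP against CON and 0.0140 for BAC against CON and adjusted p of 0.311 and 0.401. Without BAC 2 the differences of BAC were -1.25 from DNP and -1.58 from CON. Syt2, the paralog that serves fast synapses of the hindbrain, was at 9.01, 50.0 and 8.09 FPKM in CON, 23.1, 2.86 and 2.47 FPKM in DNP, and 56.3, 4.68 and 24.6 FPKM in BAC. It was highest in BAC 1 and CON 2, the 2 libraries with the most cerebellar marker RNA.

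Cplx1, which encodes complexin-1, lies on chromosome 5 (GRCm38 chr5:108518554-108550024, minus strand). It stood at 222, 198 and 224 FPKM in CON, 445, 261 and 255 FPKM in DNP, and 300.0, 215 and 377 FPKM in BAC. All 3 DNP libraries were above all 3 CON libraries, which was true of no other member in this comparison. Over all tested genes, 11.6% had FPKM values in DNP entirely above those in CON and 6.61% entirely below. The fitted difference was 0.53 (SE 0.27, interval -0.08 to 1.15; edgeR adjusted p = 0.492), and it was 0.22 without DNP 1 and 0.21 without DNP 1, BAC 1 and BAC 3. With the brainstem and cerebellar marker scores as covariates it was -0.04. BAC and DNP differed by -0.14 (SE 0.27) and BAC and CON by 0.40 (SE 0.27), and the latter was -0.01 without the 3 libraries.

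Cplx2, which encodes complexin-2, the form most used in forebrain principal neurons, lies on chromosome 13 (GRCm38 chr13:54371349-54383917, plus strand). It was at 308, 239 and 273 FPKM in CON, 136, 256 and 263 FPKM in DNP, and 131, 342 and 129 FPKM in BAC. The 3 lowest values, 129 to 136 FPKM, belonged to DNP 1, BAC 1 and BAC 3, and the remaining 6 libraries lay between 239 and 342 FPKM. DNP and CON differed by -0.37 (SE 0.43; edgeR adjusted p = 0.797), BAC and DNP by -0.12 (SE 0.43; edgeR adjusted p = 0.998) and BAC and CON by -0.49 (SE 0.43; edgeR adjusted p = 0.799). Without these 3 libraries the differences were -0.14, 0.44 and 0.30.

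Syn1, the vesicle-tethering synapsin, lies on the X chromosome (GRCm38 chrX:20860511-20921004, minus strand). Its levels were 146, 72.7 and 133 FPKM in CON, 99.4, 120 and 125 FPKM in DNP, and 69.7, 124 and 88.3 FPKM in BAC. The 2 lowest libraries, BAC 1 and CON 2, were those with the most cerebellar marker RNA. Group differences were -0.08 (SE 0.32), -0.30 (SE 0.32) and -0.38 (SE 0.32) in the order DNP against CON, BAC against DNP and BAC against CON, with edgeR adjusted p of 0.951, 0.998 and 0.788. With the regional scores as covariates they were -0.79, -0.04 and -0.83, with unadjusted edgeR p of 0.0136 for the first and 0.0109 for the last and adjusted p of 0.310 and 0.401. Without CON 2 alone they were -0.36, -0.29 and -0.65. Its exons overlap those of Araf on the opposite strand by 9 bases, or 0.27% of its exonic length, and no other member shared exonic bases with a neighbouring gene. Syn2, its paralog, ran from 33.4 FPKM in BAC 1 to 67.5 in CON 1, and Syn3 stayed between 0.496 and 1.34 FPKM. By DESeq2, without the scores, Syn2 was -0.31 in DNP against CON (DESeq2 adjusted p = 0.763). With the regional scores as covariates Syn2 was -0.86, 0.06 and -0.80 in the order given for Syn1. The first and last had unadjusted edgeR p of 0.0061 and 0.0087 and adjusted p of 0.310 and 0.401.

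Between groups, then, 0 of the 8 genes passed in DNP against CON by edgeR, with p values adjusted over all tested genes by the Benjamini-Hochberg method, where the background was 0% (0 of 18501 genes). At an unadjusted p under 0.05 the count of members was also 0, beside 11.2% of all genes (5.71% higher and 5.46% lower). Of the 8 members 4 lay above and 4 below CON, as 51.4% of all genes lay above it, with a median log2 fold change of -0.0040 beside 0.013 over all genes. DESeq2, an alternative test, called 342 genes of the table in this comparison and 0 members.

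In BAC against DNP, 0 members passed (background 0%), and 0 had an unadjusted p under 0.05 beside 2.37% of all genes (1.37% higher and 1% lower). Vamp1 was above DNP and the other 7 below, where 48.1% of all genes lay above, with a median of -0.28 beside -0.013 over all genes, and no member's BAC values lay apart from its DNP values, beside 6.68% of all genes (3.62% higher and 3.06% lower). DESeq2 called 7 genes and 0 members. Against CON, BAC again had 0 members past the threshold (background 0%) and 0 at an unadjusted p under 0.05 (7.76% of all genes, 4.46% higher and 3.3% lower). There 2 members lay above and 6 below, with 48.2% of all genes above, and the median was -0.38 beside -0.017. No member's BAC values lay apart from its CON values, as 9.17% of all genes did above and 4.26% below, and DESeq2 called 100 genes and 0 members. The 3 comparisons share libraries, so that their values are not independent of each other. Of the 3 BAC libraries 2, and of the 3 DNP libraries 1, carried the brainstem markers, and no CON library did.

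These counts differed in some other fits. Without CON 2, 2 members had an unadjusted edgeR p under 0.05 in BAC against CON, beside 1757 of 19008 genes. In DNP against CON and in BAC against DNP 0 members did so without CON 2. With the cerebellar and brainstem scores as covariates, 2 members had an unadjusted p under 0.05 in DNP against CON (Syt1 and Syn1, both lower), beside 13.4% of all genes. In BAC against DNP 1 did (Cplx1, lower), beside 4.04%, and in BAC against CON 3 did (Syt1, Stx1a and Syn1, all lower), beside 11.5%, and 0 members and 0 of all genes passed after adjustment. For DNP against CON, BAC against DNP and BAC against CON in turn, the covariate fit gave 0.02, -0.32 and -0.30 for Snap25, -0.24, -0.45 and -0.69 for Vamp1, and -0.10, -0.02 and -0.13 for Vamp2. It gave -0.04, -0.33 and -0.37 for Cplx1 and -0.42, 0.26 and -0.16 for Cplx2. Without BAC 2, 4 members had an unadjusted p under 0.05 in BAC against DNP (Syt1, Stx1a, Vamp2 and Cplx2, all lower), beside 7.81% of all genes. In BAC against CON 4 did as well (Syt1, Stx1a and Cplx2 lower and Vamp1 higher), beside 14.2%, and both BAC libraries then compared carried the brainstem markers.

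**Figure D2:**
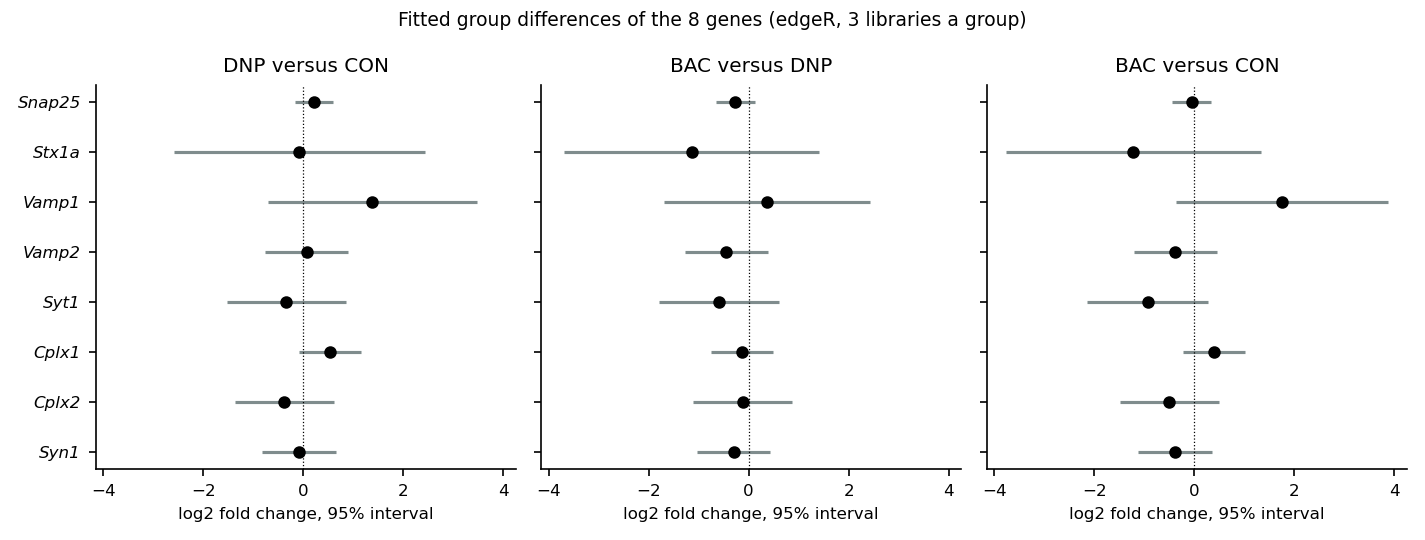
Log2 fold change (horizontal) of each gene (vertical) in the 3 comparisons, as points with 95% intervals from the edgeR fit of 9 libraries. Every interval crosses 0; those of Snap25 are the narrowest and those of Stx1a, -2.59 to 2.43 in DNP against CON, the widest.

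The share of each pair taken by 1 paralog was next compared inside each library, where depth cancels. Vamp1 divided by Vamp2 was 0.0734, 0.106 and 0.0845 in CON, 0.854, 0.0297 and 0.0970 in DNP, and 0.656, 0.0545 and 0.716 in BAC. By FPKM Vamp2 thus exceeded Vamp1 in every library, by a factor that shrank nearly to parity in DNP 1, BAC 1 and BAC 3. Counts without the length scaling had Vamp1 above Vamp2 there, at 14865 against 6406, 9959 against 5585 and 15110 against 7772. Which paralog led in these 3 libraries therefore depended on the length taken for each gene. Cplx1 divided by Cplx2 was 0.720, 0.827 and 0.821 in CON, 3.28, 1.02 and 0.969 in DNP, and 2.3, 0.630 and 2.91 in BAC. By FPKM Cplx2 led in CON, Cplx1 led in the 3 libraries with brainstem markers, and DNP 2 and DNP 3 were close to 1. Counts put Cplx2 ahead in DNP 2 (18490 against 9355) and DNP 3 (19563 against 9413). Syt2 divided by Syt1 ran from 0.0294 in DNP 3 to 2.02 in BAC 1, a 68.7-fold span.

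Of these 3 ratios in the 3 comparisons, only the complexin ratio separated 2 groups, DNP from CON. The mean log2 ratio of Cplx1 to Cplx2 was 0.56 ± 0.99 (SD, n = 3) in DNP and -0.34 ± 0.11 (SD, n = 3) in CON, a difference of 0.91. The exact two-sided permutation test gave p = 0.1, the smallest that 3 against 3 allows, and an adjusted p of 0.9 over the 9 ratio comparisons. For Vamp1 to Vamp2 the difference was 0.63 in DNP against CON (exact permutation p = 0.8) and 1.76 in BAC against CON (exact permutation p = 0.4). Without DNP 1, BAC 1 and BAC 3 these were -0.70 and -0.68. The remaining 6 comparisons had exact permutation p between 0.2 and 1.0, and none of the 9 could have reached 0.05.

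**Figure D3:**
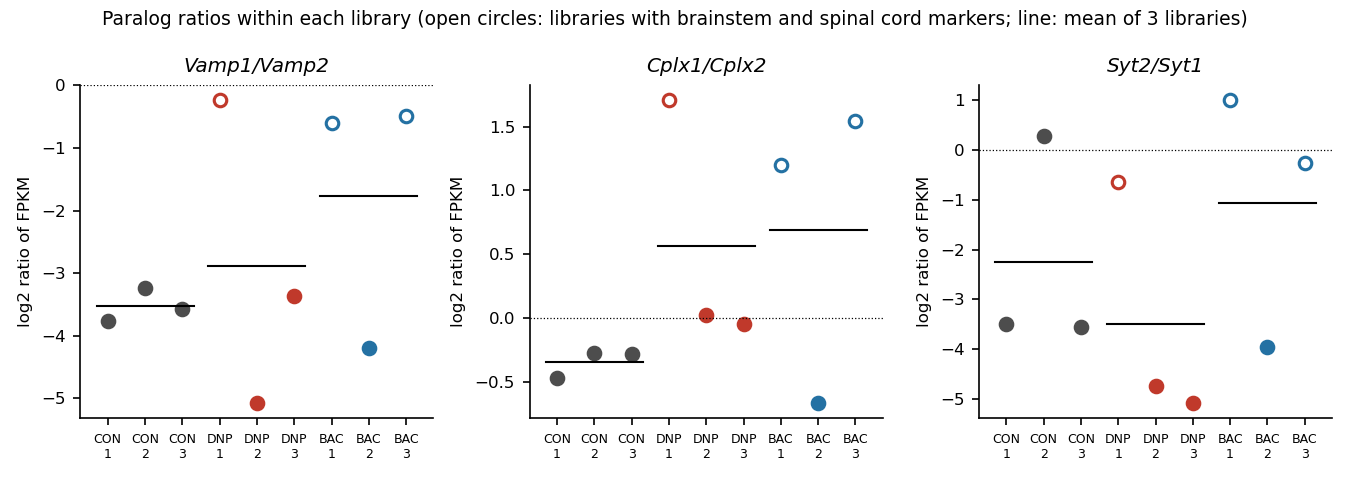
Log2 ratio of FPKM (vertical) for 3 paralog pairs in each of the 9 libraries (horizontal), with the mean of each group of 3 as a line, a dotted line at equal levels and open circles for DNP 1, BAC 1 and BAC 3. For Cplx1/Cplx2 the open circles are the only points clearly above equality, and all 3 CON libraries lie below all DNP libraries.

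By FPKM, which depends on the length taken for each gene, the 8 genes stood in nearly 1 order in most libraries. Counts ordered them otherwise, with Syt1 above Cplx1 in CON 1 (25667 against 8695). In CON the mean FPKM was 288 ± 15.4 (SD, n = 3) for Snap25, 273 ± 34.6 for Cplx2, 215 ± 14.7 for Cplx1, 149 ± 22.4 for Vamp2, 117 ± 39.1 for Syn1, 79.2 ± 33.3 for Syt1, 41.6 ± 29.6 for Stx1a and 12.8 ± 0.516 for Vamp1. Among neighbours in that order, Cplx2 and Cplx1, and Cplx1 and Vamp2, had ranges over the 3 CON libraries that did not overlap, and the other 5 neighbouring pairs overlapped. Vamp1 was the lowest of the 8 in 5 libraries and Stx1a in the other 4, namely CON 2, DNP 1, BAC 1 and BAC 3. In DNP the order of means began with Snap25 (345 ± 46.3), Cplx1 (320.4 ± 108) and Cplx2 (218 ± 71.4), and in BAC with Cplx1 (297 ± 80.6), Snap25 (293 ± 40.9) and Cplx2 (201 ± 122). The ranges of all these neighbours overlapped, so that the changed order of the means was within the spread of the libraries.

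Set against region markers, the members fell into different patterns. In DNP 1, BAC 1 and BAC 3, Vamp1 was at 56.4 to 79.9 FPKM against 6.28 to 17.3 FPKM in the other 6 libraries, and Cplx1 at 300.0 to 445 against 198 to 261 FPKM. The reverse was seen for Vamp2 (85.9 to 101 against 124 to 212 FPKM), Cplx2 (129 to 136 against 239 to 342 FPKM) and Syt1 (27.9 to 36.1 against 41.0 to 101 FPKM). These 5 of 8 genes did not overlap between the 2 sets of libraries, as 17.2% of all tested genes did not (11% higher and 6.16% lower), and Snap25, Stx1a and Syn1 overlapped. The sets were drawn from the marker genes and are not groups of the study, so no test was made. Stx1a, Syt1 and Syn1 were also low in CON 2. There cerebellar markers were at 1598 FPKM, brainstem markers at 3.85 FPKM and cortical and hippocampal markers at 159 FPKM. Vamp1 in CON 2 was 13.2 FPKM, level with the other CON libraries.

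**Figure D4:**
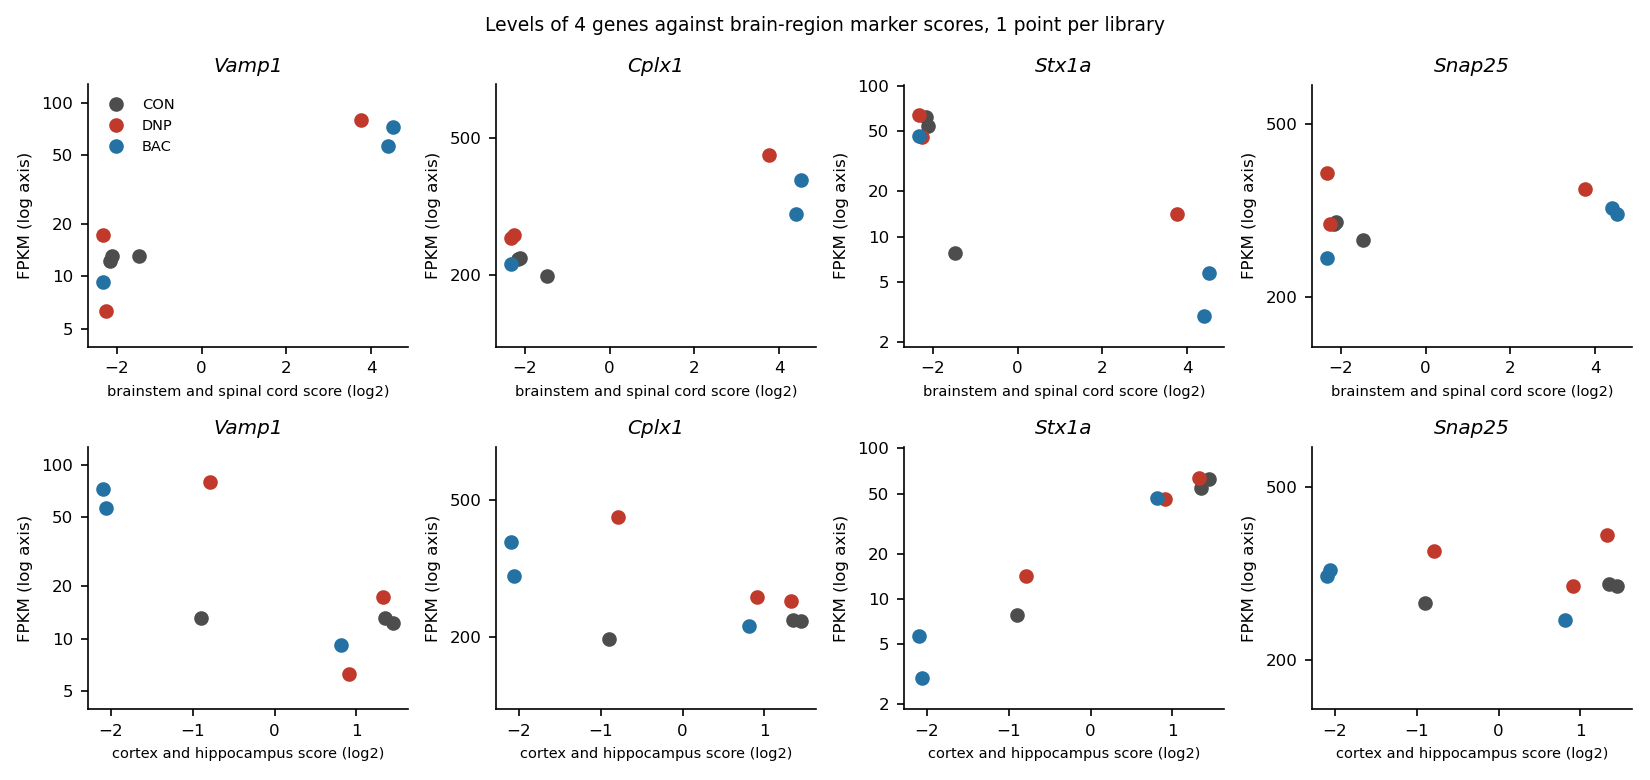
FPKM of Vamp1, Cplx1, Stx1a and Snap25 (vertical, log axis) against the brainstem and spinal cord score (upper row) and the cortex and hippocampus score (lower row), each the mean log2 deviation of the markers from their average over libraries, with 1 point per library coloured by group. Vamp1 and Cplx1 are high in the 3 libraries with brainstem scores of 3.75 to 4.53, Stx1a is at or under 14.2 FPKM in the 4 libraries with negative cortex scores, and Snap25 shows neither.

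Markers of other cells moved as well. The 8 oligodendrocyte markers summed to 307 to 409 FPKM in CON, 522 to 1235 in DNP and 401 to 1308 in BAC, and all 8 were higher in DNP than in CON at an unadjusted p under 0.05, with none past the adjusted threshold. Striatal markers (8 genes) ran from 76.6 to 512 FPKM over the 9 libraries, and none had an unadjusted p under 0.05. The 12 pan-neuronal markers summed to 713 to 960 FPKM in CON, 943 to 1692 in DNP and 931 to 1474 in BAC, with 1 at an unadjusted p under 0.05 in the 3 comparisons together (lower in BAC than CON). Sums for the 8 astrocyte, 8 microglial and 6 endothelial markers overlapped between CON and BAC, and microglial markers were at 66.6 to 124 FPKM in CON and 147 to 169.7 in DNP. Of these 4 glial and vascular lists, 8, 1, 1 and 1 genes (oligodendrocyte, astrocyte, microglia, endothelium) had an unadjusted p under 0.05 in DNP against CON, 0, 0, 1 and 3 in BAC against DNP, and 6, 1, 1 and 2 in BAC against CON. Over all genes the shares were 11.2%, 2.37% and 7.76% in turn. The astrocyte gene in DNP against CON and the endothelial genes in both BAC comparisons were lower, and the rest were higher. In BAC against DNP 7 of the 8 microglial markers lay lower at any p. Their part in the levels of the fusion genes was not tested.

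Pairs of members followed each other over the 9 libraries to different degrees, given here as a description because the points share library composition. On log2 CPM (counts scaled by library total), Pearson's r was 0.97 for Syt1 and Stx1a, 0.96 for Stx1a and Syn1, 0.90 for Vamp2 and Cplx2 and 0.83 for Vamp1 and Cplx1. It was -0.90 for Vamp1 and Vamp2, -0.91 for Vamp1 and Cplx2 and -0.78 for Cplx1 and Cplx2. Snap25 had r between -0.29 and 0.51 with the other 7. Over the 9 libraries, paralogs of the vesicle SNARE and of complexin thus ran opposite to each other. In DNP 1, BAC 1 and BAC 3, Vamp1 and Cplx1 were highest and Vamp2 and Cplx2 lowest. Outside these libraries the opposition did not hold throughout. Within CON, Cplx1 and Cplx2 were both lowest in CON 2 (479 and 1165 CPM). DNP 2 had the least Vamp1 and the most Vamp2, but DNP 3 had more of both than CON 3.

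Among 11110 genes with a mean of at least 10 CPM, the most alike to Vamp1 over the 9 libraries were Nap1l2 (r = 0.995) and Slc17a6 (r = 0.988), the vesicular glutamate transporter VGLUT2. Slc17a6 was at 3.89, 4.45 and 3.86 FPKM in CON, 29.0, 2.36 and 7.04 FPKM in DNP, and 24.98, 4.04 and 37.5 FPKM in BAC, with the same 3 libraries high. Closest to Stx1a were Epop (r = 0.996) and Kcnv1 (r = 0.992), a modulatory potassium channel subunit that ranged from 0.449 FPKM in BAC 1 to 16.7 in CON 1. To Cplx1 they were Apln, the peptide apelin, and Chga, chromogranin A of dense-core vesicles (both r = 0.970), the latter at 94.0, 60.1 and 90.8 FPKM in DNP 1, BAC 1 and BAC 3 and at 34.2 to 56.4 FPKM elsewhere. The nearest pair was Dusp7 and Cap2 for Syt1 (r = 0.994 and 0.993), Crocc and Actl6b for Vamp2 (0.996 and 0.989), Jph4 and Slc6a6 for Cplx2 (0.990 and 0.981), St6galnac5 and Extl1 for Syn1 (both 0.991) and Ntng1 and Spns2 for Snap25 (0.976 and 0.957).

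Promoter sequence was examined for the genes that moved together or apart. Of the 8 members, 6 were matched in the RefSeq promoter table (GRCm38.p6), and the 250 bases before the transcription start are printed for Vamp1 and Cplx1, which were high in the same libraries, and for Stx1a, which had the widest span. Capitals mark a GC box (GGGCGG on either strand).
Vamp1, chr6:125215331-125215580, plus strand: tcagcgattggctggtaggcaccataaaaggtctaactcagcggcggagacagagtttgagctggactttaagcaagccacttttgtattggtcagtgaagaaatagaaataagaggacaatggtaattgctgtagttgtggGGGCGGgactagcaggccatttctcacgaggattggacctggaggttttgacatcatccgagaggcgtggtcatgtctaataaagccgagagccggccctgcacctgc
Cplx1, chr5:108550028-108550277, minus strand: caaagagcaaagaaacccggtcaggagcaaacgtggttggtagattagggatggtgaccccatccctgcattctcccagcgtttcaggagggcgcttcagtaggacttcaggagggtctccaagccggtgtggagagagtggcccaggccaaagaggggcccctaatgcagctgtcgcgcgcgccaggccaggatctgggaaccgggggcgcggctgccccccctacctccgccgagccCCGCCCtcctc
Stx1a, chr5:135023232-135023481, plus strand: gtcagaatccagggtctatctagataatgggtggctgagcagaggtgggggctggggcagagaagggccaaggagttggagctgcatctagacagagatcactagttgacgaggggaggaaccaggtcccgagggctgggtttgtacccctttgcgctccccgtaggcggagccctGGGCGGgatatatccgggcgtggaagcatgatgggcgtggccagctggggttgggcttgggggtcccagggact
Each of these windows held 1 GC box, as did 1 of the 2 Syt1 windows, beside 32.7% of the 32851 windows in the table. The Syn1 window held 1 cAMP response element (TGACGTCA), which 1.55% of windows hold. An E-box (CACGTG, 6.02% of windows) and a TATA motif (TATAAA, 12.4% of windows) were found in none of the 7 member windows with both strands read, and no hit overlapped another. GC content was 50.4% for Vamp1, 64.8% for Cplx1 and 62.0% for Stx1a, beside a median of 52.4%. The Cplx2 window and the other Syt1 window held none of these motifs, and no window was at hand for Vamp2. The RefSeq starts were not all those of GENCODE: 30 bases of the Vamp1 window, 86 of the Syn1 window and 7 of the Syt1 window with the GC box lie inside the GENCODE gene, the other Syt1 window lies inside it with all 250 bases, and the Cplx2 window ends 68793 bases before the gene.

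The wider machinery was described by 4 lists. Of 28 other SNAREs, which serve fusion at the Golgi, endosomes and plasma membrane, 0 passed in DNP against CON, and 1 was higher and 0 lower at an unadjusted p under 0.05 (beside 11.2% of all genes in either direction). Their median log2 fold change was 0.11. Use1, a SNARE of Golgi-to-endoplasmic-reticulum traffic, was at 6.19, 8.25 and 6.66 FPKM in CON and 10.4, 9.16 and 9.25 FPKM in DNP, a difference of 0.41 (SE 0.14, edgeR adjusted p = 0.376). All DNP libraries were above all CON libraries, and the same was so of Bet1 (0.39, SE 0.23, edgeR adjusted p = 0.568) and Stx4a (0.26, SE 0.18, edgeR adjusted p = 0.610). Of the 28 genes 4 lay entirely above CON and 0 entirely below, beside 11.6% and 6.61% of all genes. In BAC against DNP 0 of 28 had an unadjusted p under 0.05, and the smallest p values belonged to Gosr1 (0.17, SE 0.12) and Stx16 (-0.15, SE 0.14). In BAC against CON the count was also 0, with a median of 0.10.

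Of 17 other calcium sensors, further synaptotagmins and the Doc2 proteins, 0 passed in DNP against CON, 0 were higher and 2 lower at an unadjusted p under 0.05, beside 5.71% and 5.46% of all genes, with a median of -0.34. Doc2b, a high-affinity sensor linked to spontaneous release, was at 10.8, 26.5 and 11.3 FPKM in CON, 5.65, 10.6 and 7.00 FPKM in DNP, and 13.4, 15.8 and 10.8 FPKM in BAC. Its DNP values lay below all CON and all BAC values. Of the 17 sensors 4 lay entirely below CON in DNP and 0 entirely above, beside 6.61% and 11.6% of all genes. In BAC against DNP 1 lay entirely above and 0 entirely below, beside 3.62% and 3.06%. The differences were -1.09 against CON (SE 0.38, edgeR adjusted p = 0.376) and 0.76 for BAC against DNP (SE 0.37, edgeR adjusted p = 0.998), so neither passed, and with the regional scores as covariates the first was 0.11. Syt7, the slow sensor of asynchronous release, was at 33.2, 39.5 and 35.3 FPKM in CON, 20.6, 28.5 and 28.0 FPKM in DNP, and 20.8, 29.5 and 17.2 FPKM in BAC. Both diabetic groups lay below CON in all libraries, with -0.53 for DNP (SE 0.23, edgeR adjusted p = 0.451) and -0.20 with the regional scores. In BAC against CON 1 of the 17 lay entirely below and 0 entirely above, beside 4.26% and 9.17% of all genes. Syt14 was -0.45 (SE 0.17, edgeR adjusted p = 0.398) in the same comparison (-0.22 with the scores), and Syt4 0.39 (SE 0.25, edgeR adjusted p = 0.998) in BAC against DNP (0.11 with the scores). In that comparison 0 of 17 sensors had an unadjusted p under 0.05 (median 0.03), and in BAC against CON 2 did, both lower, beside 3.3% of all genes lower (median -0.11).

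The list of SNARE assembly and disassembly factors (Munc18, tomosyn, Munc13, CAPS, NSF and SNAP proteins and their relatives) had 23 of 24 genes tested. In DNP against CON 0 passed, 2 were higher and 3 lower at an unadjusted p under 0.05, beside 5.71% and 5.46% of all genes, and the median was -0.03 (-0.36 with the regional scores as covariates). Stxbp5l, tomosyn-2, an inhibitor of SNARE assembly, was at 5.73, 8.00 and 6.84 FPKM in CON, 3.91, 2.11 and 2.06 FPKM in DNP, and 7.76, 3.66 and 4.49 FPKM in BAC. DNP lay entirely below CON, by -1.38 (SE 0.33, edgeR adjusted p = 0.294; DESeq2 adjusted p = 0.0127), and BAC was above DNP by 0.94 (SE 0.33, edgeR adjusted p = 0.998). Cadps2, a CAPS protein that primes dense-core vesicles, was at 6.81, 13.9 and 8.17 FPKM in CON, 3.07, 3.16 and 4.71 FPKM in DNP, and 8.68, 2.96 and 4.01 FPKM in BAC. Again DNP lay below CON, by -1.43 (SE 0.41, edgeR adjusted p = 0.327; DESeq2 adjusted p = 0.0406). With the regional scores as covariates the difference of Cadps2 was -0.44 and that of Stxbp5l -1.27. Of the 23 genes tested 4 lay entirely below CON in DNP and 1 entirely above, beside 6.61% and 11.6% of all genes. Stxbp3, Munc18-3, the partner of syntaxin-4, was 0.62 above CON (SE 0.21, edgeR adjusted p = 0.374). Snph, syntaphilin, which anchors axonal mitochondria, was -0.55 in BAC against DNP (SE 0.30, edgeR adjusted p = 0.998). The list had 1 gene with an unadjusted p under 0.05 in BAC against DNP (2.37% of all genes; median -0.00092) and 4 in BAC against CON, 2 in each direction (4.46% of all genes higher and 3.3% lower; median -0.07).

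Of 26 other vesicle proteins, 0 passed in DNP against CON, 1 was higher and 2 lower at an unadjusted p under 0.05, beside 5.71% and 5.46% of all genes, and the median was 0.10. With the regional scores as covariates the median was -0.46, with 6 of the 26 above CON and 20 below, and it was -0.05 without CON 2. Syngr1, synaptogyrin-1, an abundant vesicle membrane protein, was at 117, 107 and 110.4 FPKM in CON, 87.4, 80.1 and 80.3 FPKM in DNP, and 76.4, 74.9 and 85.6 FPKM in BAC. CON was above both other groups in every library, and the DNP libraries with and without brainstem markers were close together. Of the 26 genes 2 lay entirely below CON in DNP and 1 entirely above, beside 6.61% and 11.6% of all genes. In BAC 2 lay entirely below CON and 4 entirely above, beside 4.26% and 9.17%. The difference of DNP from CON was -0.47 (SE 0.13, edgeR adjusted p = 0.327; DESeq2 adjusted p = 0.0106), and -0.73 with the regional scores. Atp6v0a1, a subunit of the proton pump that fills vesicles, was -0.43 (SE 0.16, edgeR adjusted p = 0.392), and -0.79 with the scores. Slc18a3, the vesicular acetylcholine transporter, was at 1.35, 0.179 and 0.169 FPKM in CON and 10.7, 2.04 and 0.796 FPKM in DNP, a difference of 2.91 (SE 1.13, edgeR adjusted p = 0.402) that was -0.67 with the regional scores as covariates. It overlaps Chat on the same strand in GENCODE, with 0 exonic bases in common.

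In BAC against DNP 0 vesicle proteins had an unadjusted p under 0.05 (median -0.08). The smallest p values were those of Syngr2 (-0.72, SE 0.45) and Rab3a, the vesicle GTPase (-0.26, SE 0.17), both with edgeR adjusted p = 0.998. In BAC against CON 5 of the 26 had an unadjusted p under 0.05, 3 higher and 2 lower, beside 4.46% and 3.3% of all genes (median 0.0020, and -0.45 with the regional scores), with 0 past the adjusted threshold. Across the 4 lists no gene passed by edgeR in any comparison. DESeq2 called 2 lower assembly factors and 1 lower vesicle protein in DNP against CON. In BAC against CON it called 1 lower vesicle protein. With the regional scores as covariates, more list genes had an unadjusted edgeR p under 0.05, and 0 passed. In DNP against CON they were 9 of 23 assembly factors, 8 of 26 vesicle proteins, 5 of 17 sensors and 2 of 28 SNAREs, beside 13.4% of all genes. In BAC against CON they were 7, 10, 6 and 0, beside 11.5%. In BAC against DNP they were 1, 1, 1 and 0, beside 4.04%.

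**Figure D5:**
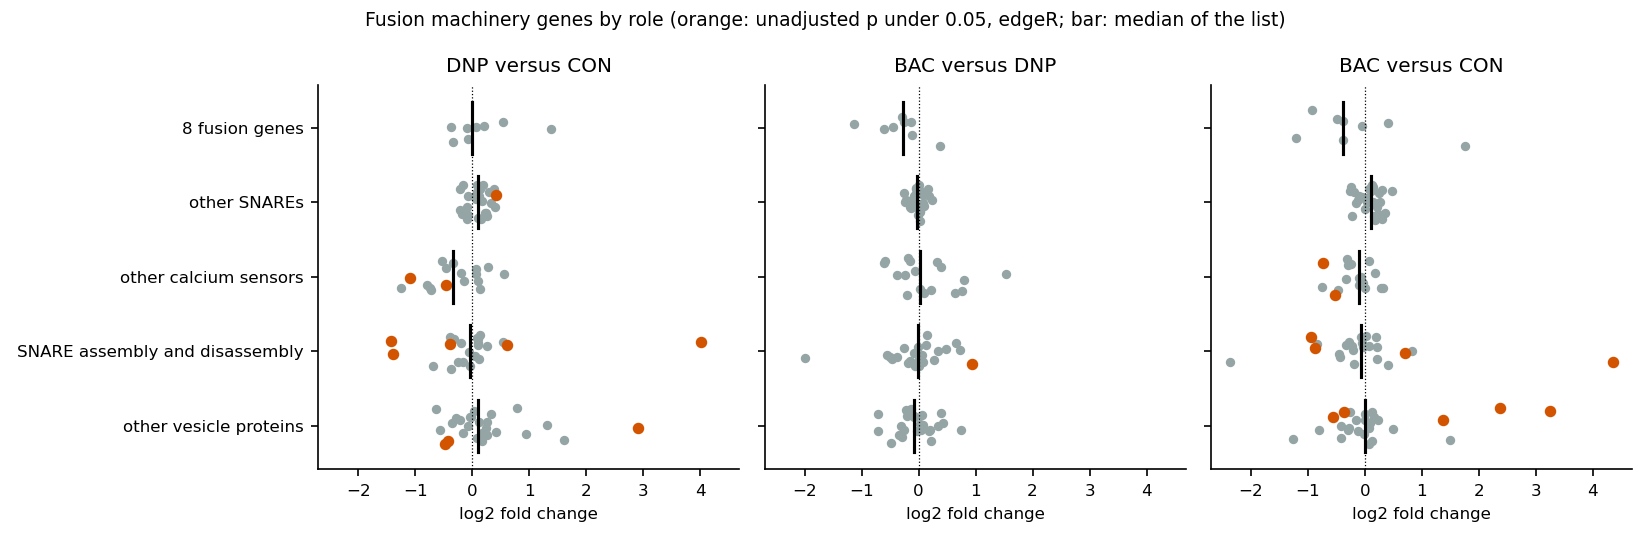
Log2 fold change (horizontal) of every tested gene in the 8 members and the 4 lists (rows) for the 3 comparisons, with a bar at each list's median and orange points for an unadjusted p under 0.05 by edgeR. The members hold no orange point, and the lists hold 11 in DNP against CON, 1 in BAC against DNP and 11 in BAC against CON, none past the adjusted threshold.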

How the data were processed

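Unstranded paired-end libraries were made from whole-brain poly(A) RNA of 9 mice (3 in each of CON, DNP and BAC) and grouped by sample label. The authors checked reads with FastQC 0.11.9, filtered them with fastp, aligned them to GRCm38 with HISAT2 2.1.0 and used StringTie 1.3.3b to produce the deposited raw count per gene. The FPKM values deposited by the authors equal count over library total and a divisor fixed for each gene, to within a ratio of 1.00004 in 14125 genes. They carry no TMM factor.

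Counts of all genes were fitted in R 4.3.3 with edgeR 4.0.16 (filterByExpr with a minimum count of 10, TMM, quasi-likelihood, group as factor, 9 libraries together, Benjamini-Hochberg threshold of 0.05), after a test on simulated data. SE and 95% intervals come from that fit. DESeq2 1.42.0 and limma 3.58.1 served as alternatives, and paralog ratios were compared by exact permutation (scipy 1.17.1). One planned paralog comparison is not reported here, and ratio p values were adjusted over those shown. EdgeR p values weigh a difference against the spread within groups of 3 mice, fitted over the 9 libraries together and drawing on all genes. That spread includes the differences in regional markers between libraries of a group. The 8 members and all lists were chosen with earlier results of these data known. Named by rule were the members, their paralogs, per list the 3 genes with the smallest p in DNP against CON and 2 in BAC against DNP, and the 2 genes most alike each member (log2 CPM, prior count of 2). Coordinates and coding sequences come from GENCODE, promoters from RefSeq.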

Additional observations from a re-analysis of the deposited data

How the results depend on the processing

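No member passed the threshold under any of the 19 alternatives tried in each comparison (another test or scaling, no filter, FPKM in place of counts, regional scores as covariates, a replicate block, each library left out, and the sets of libraries below, which were chosen after seeing the data). The direction of Snap25, Syt1 and Cplx2 in DNP against CON, and of Snap25, Syt1, Stx1a and Vamp2 in BAC against DNP, was the same in all 19, and so was that of Syt1 in BAC against CON. DESeq2 called 342 genes in DNP against CON (148 higher, 194 lower), 7 in BAC against DNP and 100 in BAC against CON, where edgeR called 0; of the 4 lists it called 2 assembly factors and 1 vesicle protein in DNP against CON, Stxbp5l, Cadps2 and Syngr1, and 1 vesicle protein in BAC against CON. The cause was not tested. Leaving out 1 library gave 0 to 1 called genes in DNP against CON and in BAC against CON, the 1 without CON 2 or CON 3.

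Log2 differences, of levels or of paralog ratios, that turned were as follows, and the cause was not tested. Without DNP 1, BAC 1 and BAC 3 they were for DNP against CON Stx1a 0.32, Vamp1 -0.18, Vamp1/Vamp2 -0.70, for BAC against DNP Vamp1 -0.31, Cplx2 0.44, Syn1 0.060, Syn2 0.27, Snph 0.094, Cplx1/Cplx2 -0.66 and for BAC against CON Stx1a 0.13, Vamp1 -0.49, Vamp2 0.17, Cplx1 -0.013, Cplx2 0.30, Syn1 0.055, Syt2 -2.25, Vamp1/Vamp2 -0.68, Cplx1/Cplx2 -0.32, Syt2/Syt1 -1.70. Without CON 2 as well they were for DNP against CON Vamp1 -0.18, Vamp1/Vamp2 -0.55, for BAC against DNP Vamp1 -0.30, Cplx2 0.45, Syn1 0.070, Syn2 0.28, Snph 0.10, Cplx1/Cplx2 -0.66 and for BAC against CON Vamp1 -0.48, Vamp2 0.051, Cplx1 -0.071, Cplx2 0.21, Syt2 -0.89, Vamp1/Vamp2 -0.53, Cplx1/Cplx2 -0.29, Syt2/Syt1 -0.43. Both sets leave 1 BAC library, which is assumed to vary like the others. With the 2 regional scores as covariates they were for DNP against CON Vamp1 -0.24, Vamp2 -0.10, Cplx1 -0.041, Doc2b 0.11, Slc18a3 -0.67, for BAC against DNP Vamp1 -0.45, Cplx2 0.26, Syn2 0.060 and for BAC against CON Vamp1 -0.69, Cplx1 -0.37, Syt2 -0.30, Syn3 -0.44. The same covariates moved medians of the lists without an adjusted call: for DNP against CON to -0.36 (assembly factors), -0.46 (vesicle proteins), 0.028 (other SNAREs) and -0.24 (calcium sensors), and for BAC against CON to -0.38, -0.45, 0.0059 and -0.23; of these the vesicle proteins turned, from 0.10 and 0.0020. Several differences grew with them or without BAC 2, by over 1.5 times, while keeping their direction: those of Syt1, Stx1a and Syn1 are in the text above. With limma on log2(FPKM + 1) they were for DNP against CON Stx1a 0.19, Syn1 0.025 and for BAC against CON Snap25 0.015, and with a pseudocount of 0.1 for DNP against CON Stx1a 0.21, Syn1 0.026 and for BAC against CON Snap25 0.015. With 1 library left out in turn, the ranges were for DNP against CON Stx1a -0.58 to 0.37, Syn1 -0.36 to 0.13, Vamp2 -0.19 to 0.34, Syt2 -3.08 to 0.079, Vamp1 -0.17 to 1.87, Syn3 -0.62 to 0.12, Vamp1/Vamp2 -0.70 to 1.72, Syt2/Syt1 -2.66 to 0.036, for BAC against DNP Cplx1 -0.33 to 0.18, Vamp1 -0.12 to 1.93, Cplx2 -0.80 to 0.13, Syn2 -0.41 to 0.050, Cplx1/Cplx2 -0.30 to 0.81 and for BAC against CON Syt2 -0.66 to 1.62, Snap25 -0.11 to 0.037. DNP 1 alone turned Vamp1, and the Vamp1/Vamp2 ratio, in DNP against CON.

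Deviations of equally numbered libraries correlated from -0.58 to 0.56, and those of unequally numbered ones from -0.70 to 0.61. Libraries also differed in regional markers, so these values cannot tell whether replicate numbers pair the mice. A replicate block left 0 calls in each comparison, and 2 differences turned with it, for DNP against CON Vamp2 -0.038 and for BAC against CON Syt2 -0.055. Common dispersion corresponded to a biological coefficient of variation of 36.5%. Counts were simulated for DNP against CON over 18501 genes, with 100 genes changed by each amount and each gene's spread set by its mean level. Of genes changed by a log2 fold of 2, 58% were called, and of those changed by 1, 3%. A 2-fold difference was thus rarely called for a gene of that spread. The rate was not simulated for the members, whose SE in this comparison ran from 0.17 for Snap25 to 1.10 for Stx1a.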
